A study of Homo sapiens with 6 samples.

Results

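The tetraspanin genes were examined in 6 RNA-sequencing libraries of SW620, a long-established line of human colon cancer cells. The members were the genes of the deposited count table named TSPAN followed by a number, together with CD9, CD37, CD53, CD63, CD81, CD82 and CD151, which gave 29 of 60835 gene names. The 3 libraries labelled shDNM1 have the genotype DNM1 Knockdown, DNM1 being the gene of the vesicle-scission GTPase dynamin 1, and the 3 shControl libraries have the genotype WT. High-glucose DMEM with fetal bovine serum was the medium of both. The labels say neither whether the cells were clonal nor whether libraries of a set came from separate cultures, so a p-value here weighs a difference against library-to-library spread that may be technical. All shDNM1 libraries carry the label batch_B and all shControl libraries batch_A, so that knockdown and batch cannot be told apart in any comparison given here. In such bulk RNA, fewer cells of a type and less RNA per cell cannot be told apart either.

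Tetraspanins are small proteins that cross the membrane several times and expose a large extracellular loop with a conserved Cys-Cys-Gly motif. They bind each other and partner proteins such as integrins, the metalloprotease ADAM10 and immunoglobulin-superfamily proteins, and so gather them into patches of the membrane. CD9, CD63 and CD81 are widely used markers of exosomes, and in colon epithelium CD9, CD151, TSPAN1 and TSPAN8 are among the family members studied for adhesion and spread of tumour cells. Dynamins and tetraspanins meet on endocytic routes, where CD63 is taken up and sorted to late endosomes and lysosomes.

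Library totals ran from 12845339 to 13297842 counts in shDNM1 and from 12844534 to 13537519 counts in shControl. DNM1 itself (chromosome 9) had 126, 97.8 and 125 CPM in the libraries labelled shDNM1, against 127, 126.9 and 133 CPM in shControl, where CPM are a gene's counts relative to the TMM-scaled library total. Only shDNM1 replicate 2 stood clearly below the others. DNM1 averaged 116 ± 16.1 CPM in the libraries labelled shDNM1 and 129 ± 3.78 CPM in shControl (SD, n = 3 each). This difference of -0.15 on the log2 scale (SE 0.083) did not pass, with an adjusted p of 0.189 by edgeR's quasi-likelihood test with Benjamini-Hochberg adjustment, and it passed without shDNM1 replicate 1 (-0.20, adjusted p = 0.0399). An exact two-sided permutation test gave p = 0.1, the smallest that 3 libraries against 3 allow. The libraries are therefore called by their label, and the directions given for tetraspanins rest on that label and not on a measured drop in DNM1.

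Some markers of cell types also differed between the sets. Of 10 colon epithelium markers 8 were tested, of which 4 rose, 1 fell and 3 did not pass, with CDX1 at 0 in every library. Calls made up 62.5% of these 8, whereas 31.9% of all genes tested were called, and 43.6% of those of at least 50 TPM. The fibroblast and endothelium lists below hold too few tested genes to set beside these shares. The intestinal transcription factor gene CDX2 was 2.47-fold higher (adjusted p = 1.66e-06), and the keratin genes KRT18 and KRT8 were 1.23-fold and 1.20-fold higher (adjusted p = 0.00345 and 0.00408), although KRT8 did not pass with the TPM values (adjusted p = 0.0736 and 0.0501). EPCAM was at 0.886 of control (adjusted p = 0.0288), a call lost without shDNM1 replicate 3 (adjusted p = 0.068) and without shControl replicate 1 or 3 (adjusted p = 0.0923 and 0.126). CDH1 rose but passed narrowly (log2 fold change 0.18, adjusted p = 0.0441). Its call was lost without shDNM1 replicate 2 or 3 and without any 1 of the shControl libraries. It was also lost with upper quartile scaling, scaling by library size alone, no low-count filter and the TPM values. Its adjusted p in these fits ran from 0.0533 to 0.173. The summed deposited TPM of this list was 10027 to 10716 in shDNM1 and 9021 to 9514 in shControl. Of 7 fibroblast markers 3 were tested and 2 rose, PDGFRB 2.66-fold (adjusted p = 0.000661) and LUM 1.39-fold (adjusted p = 0.0121), with COL3A1 at 0 and a summed TPM of 36.2 to 54.3 in shDNM1 and 28.6 to 36.1 in shControl. The LUM call was lost without shDNM1 replicate 1 or shControl replicate 2 (adjusted p = 0.0628 and 0.067). It was also lost with the TPM values (adjusted p = 0.134 and 0.133). Of 5 endothelium markers 2 were tested and 1, VWF, passed narrowly (1.41-fold, adjusted p = 0.049), a call lost without shDNM1 replicate 1 or 3 (adjusted p = 0.0652 and 0.194) and without shControl replicate 1 or 2 (adjusted p = 0.162 and 0.159), with KDR at 0 and a summed TPM of 6.82 to 9.06 in shDNM1 and 7.20 to 8.40 in shControl. The part of these differences in those of the tetraspanins was not tested.

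Of the 29 tetraspanins, 24 passed the low-count filter. Of these, 10 rose, 5 fell and 9 did not pass, so 15 (62.5%) were called, whereas 31.9% of the 16744 genes tested were called at an adjusted p under 0.05. Calls in the higher direction made up 15.6% of all genes tested and calls in the lower direction 16.2%. The share called grew with level. It was 36.5% among genes of at least 5 TPM, a range that held 22 members with 14 called. Among genes of at least 50 TPM it was 43.6%, with 27.9% called higher and 15.7% lower. That range held 9 members with 6 called, all 6 higher. Most differences were small, with a median log2 fold change of 0.15 over the 24 members and -0.01 over all genes tested, and median absolute values of 0.28 and 0.24. The values of the labelled sets did not overlap for 16 of the 24 members, against 44.3% of all genes tested. That share was 48.7% among genes of at least 5 TPM and 55.1% among those of at least 50 TPM. CD82, TSPAN32, TSPAN4 and TSPAN9 rose at least 1.5-fold. TSPAN12, TSPAN8 and TSPAN2 fell by more than that.

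The family's RNA lay mostly in 4 genes. On the deposited TPM scale, which is per transcript length, CD63 averaged 893 ± 28.8 TPM in shDNM1 and 779.8 ± 43.3 TPM in shControl (SD, n = 3 each). CD9 followed at 408 ± 12.5 and 379 ± 18.1 TPM, CD151 at 211 ± 6.42 and 205 ± 13.1 TPM, and TSPAN15 at 159 ± 11.9 and 172 ± 9.78 TPM, with shDNM1 first in each pair. These 4 held the top places, in the same order, in both sets, none of their ranges touched within a set, and together they made up 72.4% to 73.6% of summed tetraspanin TPM in shDNM1 and 73.5% to 74.9% in shControl. The summed level of all members was 2256 to 2351 TPM in shDNM1 and 1984 to 2155 TPM in shControl, without overlap.

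Below them the order was less firm. In shDNM1, CD82, TSPAN13, TSPAN4, CD81 and TSPAN6 followed in that order with each neighbouring pair overlapping, and in shControl TSPAN13, TSPAN6, CD81, TSPAN4 and CD82 followed, where TSPAN6 overlapped CD81 and TSPAN4 overlapped CD82. CD82 held rank 5 in shDNM1 and rank 9 in shControl. Among the 23 neighbouring pairs of tested members, ranges overlapped in 11 in shDNM1 and 12 in shControl. TSPAN12 held rank 20 in shDNM1 and rank 15 in shControl, and TSPAN8 rank 22 in shDNM1 and rank 18 in shControl.

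**Figure D1:**
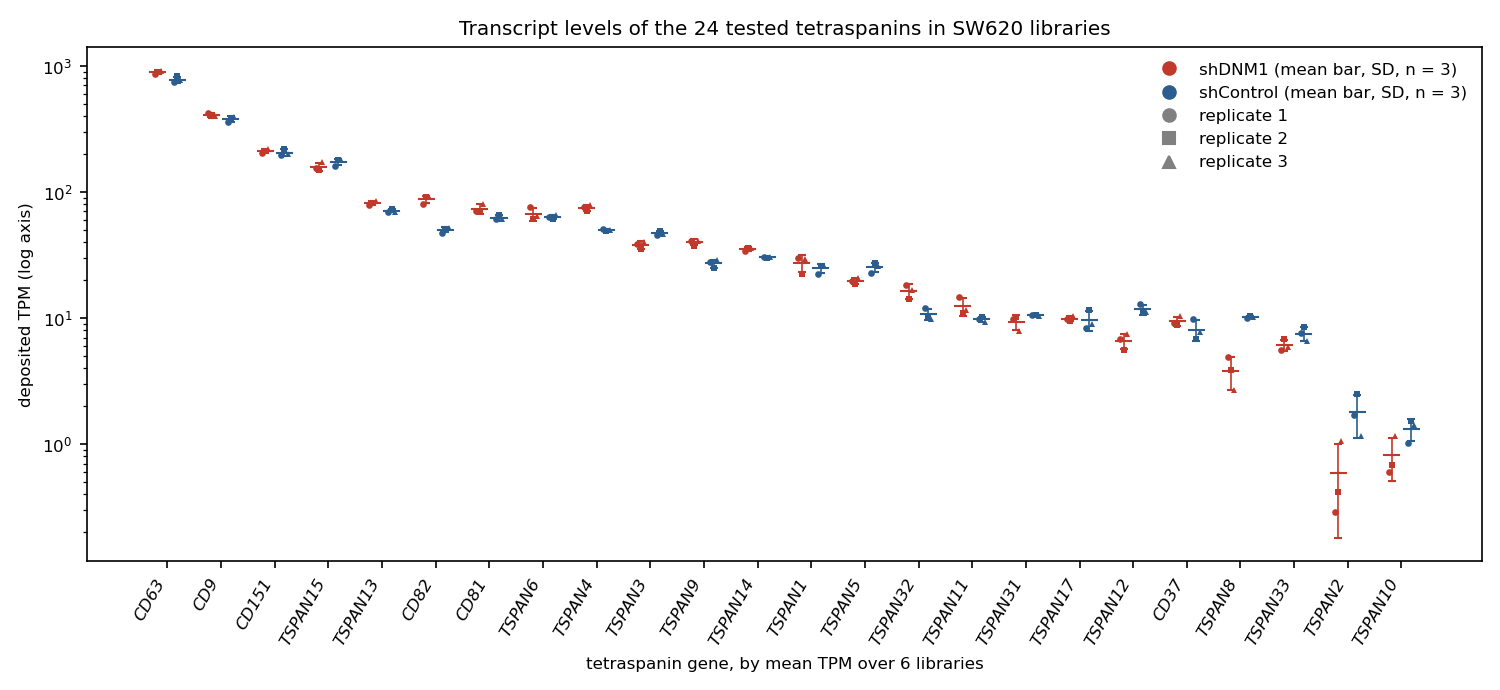
Deposited TPM (log axis) of the 24 tested tetraspanins, ordered by their mean over 6 libraries, with each library as a point, the mean as a bar and the SD (n = 3) as an error bar, shDNM1 left of shControl. Levels span from CD63 at 836 TPM to TSPAN10 at 1.06 TPM, and the sets are furthest apart for TSPAN2, TSPAN8 and TSPAN12.

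CD82, CD63, CD81, CD9 and CD151 were taken first, as members with CD names linked to exosomes or endosomes, and 4 of the 5 rose. All 5 averaged at least 50 TPM, where 43.6% of all genes were called and 27.9% were called higher. The group was drawn up by hand, so its count depends on which members were admitted and is no result about exosome markers. TSPAN8 and TSPAN6, placed outside it, fell and did not pass, respectively. CD82 (ENSG00000085117, GRCh38 chromosome 11, 44564427 to 44620358), a suppressor of metastasis that slows integrin and growth factor receptor signalling, had 59.6, 71.5 and 67.7 CPM in the libraries labelled shDNM1, against 34.0, 37.6 and 37.5 CPM in shControl. The lowest shDNM1 library was far above the highest shControl library. It rose 1.82-fold (95% interval 1.61 to 2.06, adjusted p = 3.92e-07, edgeR), and of the members it alone rose beyond 1.5-fold in a test against that size (adjusted p = 0.0135).

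CD63, the lysosomal and exosomal tetraspanin, had 354, 392.03 and 382 CPM in shDNM1, against 297, 339 and 311 CPM in shControl. All 3 shDNM1 libraries were above the shControl ones, by 1.19-fold on average (interval 1.08 to 1.31, adjusted p = 0.00651). CD81, part of the B-cell co-receptor and a marker of exosomes, had 123, 128 and 143 CPM in shDNM1, against 103, 115 and 104 CPM in shControl, again without overlap and 1.22-fold higher (adjusted p = 0.00457).

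CD9, a partner of integrins and of the heparin-binding EGF precursor, had 472, 476 and 452 CPM in shDNM1, against 387, 431 and 429 CPM in shControl. The sets did not overlap, but the 1.12-fold difference passed only narrowly (adjusted p = 0.0489). Its call was lost without shDNM1 replicate 2 or 3 (adjusted p = 0.0832 and 0.0698) and without shControl replicate 1, 2 or 3 (adjusted p = 0.215, 0.0675 and 0.101). It was also lost with upper quartile scaling, scaling by library size alone, no low-count filter and the TPM values (adjusted p from 0.0614 to 0.143). CD151, which binds laminin-receptor integrins, did not pass: it had 127, 139 and 137 CPM in shDNM1 and 117, 136 and 123 CPM in shControl, the sets overlapped, and the log2 fold change was 0.10 (interval -0.05 to 0.25, adjusted p = 0.298).

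**Figure D2:**
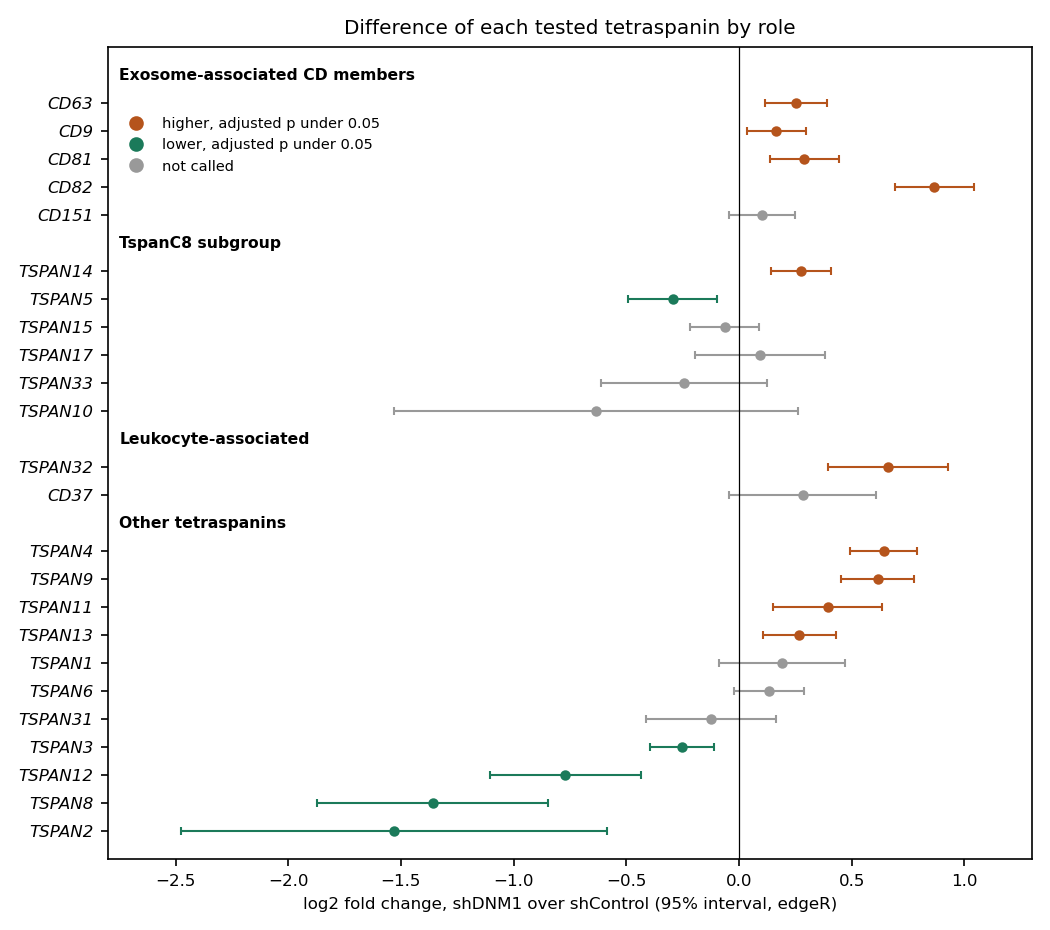
Log2 fold change (x axis, shDNM1 over shControl) of each tested tetraspanin with its 95% interval from edgeR, grouped by role, and coloured by call at an adjusted p of 0.05. Of the CD members in the top group, CD82 lies furthest to the right at 0.87, and at the bottom TSPAN12, TSPAN8 and TSPAN2 lie at -0.77, -1.36 and -1.53.

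The TspanC8 subgroup, named for the cysteines of its large loop, escorts ADAM10 out of the endoplasmic reticulum and directs it to its substrates. Of its 6 members 1 rose, 1 fell and 4 did not pass. Calls thus made up 33.3% of the subgroup, near the 31.9% over all genes tested. TSPAN14 had 183, 208 and 195 CPM in shDNM1, against 160.3, 163 and 162 CPM in shControl, a 1.21-fold rise without overlap (adjusted p = 0.00278). TSPAN5 had 26.8, 26.9 and 28.7 CPM in shDNM1, against 30.1, 36.7 and 34.3 CPM in shControl, which was 0.816 of the control level (adjusted p = 0.0222). The TSPAN5 call was lost without shDNM1 replicate 2 (adjusted p = 0.0546), without shControl replicate 2 or 3 (adjusted p = 0.118 and 0.0792), and with DESeq2 (adjusted p = 0.0526). TSPAN15, the most abundant of the subgroup by TPM, had 87.9, 89.997 and 99.0 CPM in shDNM1 and 88.8, 101 and 99.4 CPM in shControl, and did not pass (log2 fold change -0.06, interval -0.22 to 0.09, adjusted p = 0.551). TSPAN17 had 14.5, 14.99 and 15.6 CPM in shDNM1 and 12.04, 17.1 and 13.1 CPM in shControl, and TSPAN33 had 5.51, 7.09 and 5.85 CPM in shDNM1 and 7.21, 8.32 and 6.32 CPM in shControl. TSPAN10 had 6, 7 and 12 counts in shDNM1 and 10, 16 and 14 counts in shControl. In each of these 3 the sets overlapped, and the log2 intervals of TSPAN17 (-0.19 to 0.38), TSPAN33 (-0.61 to 0.12) and TSPAN10 (-1.53 to 0.26) spanned 0. TSPAN10 overlaps NPLOC4 on the opposite strand, which had 15665 counts in all against 65. Their partner ADAM10 fell, with 171 ± 2.62 CPM in shDNM1 and 212 ± 9.91 CPM in shControl (log2 fold change -0.31, adjusted p = 0.000759). Summed over the subgroup, deposited TPM ran from 221 to 246 in shDNM1 and from 232 to 257 in shControl, which overlapped.

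TSPAN4 and TSPAN9 rose by similar amounts. TSPAN4 (ENSG00000214063, chromosome 11, 842812 to 867116), known from migrasomes, the vesicles that moving cells leave on retraction fibres, had 70.3, 69.2 and 74.1 CPM in shDNM1, against 45.8, 45.2 and 45.9 CPM in shControl. The control values lay almost on each other, and the rise was 1.56-fold (interval 1.41 to 1.73, adjusted p = 1.84e-06). An antisense-strand gene that overlaps TSPAN4, AP006623.1, had 530 counts in all libraries together against 4554 for TSPAN4, and it is not given whether counting used strand. TSPAN9 (chromosome 12, 3077355 to 3286564), a tetraspanin of platelets that is also needed for the endosomal entry of some viruses, had 59.3, 57.2 and 59.98 CPM in shDNM1, against 38.6, 35.8 and 40.8 CPM in shControl. No libraries overlapped and the rise was 1.53-fold (adjusted p = 7.81e-06). An opposite-strand gene within it, AC005912.1, had 2189 counts in all against 3787 for TSPAN9 and did not pass (log2 fold change -0.10, adjusted p = 0.695).

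TSPAN13 and TSPAN11 rose less. TSPAN13, which associates with a neuronal calcium channel, had 49.2, 54.3 and 54.0 CPM in shDNM1, against 42.1, 45.7 and 43.0 CPM in shControl (1.20-fold, adjusted p = 0.0125). That call was lost without shControl replicate 1 or 3 (adjusted p = 0.0577 and 0.0646). TSPAN11 had 27.0, 21.2 and 21.6 CPM in shDNM1, against 17.4, 18.7 and 16.96 CPM in shControl, and shDNM1 replicate 1 stood above the rest. Its 1.31-fold rise (adjusted p = 0.0134) was lost without that library (adjusted p = 0.0614), without shControl replicate 3 (adjusted p = 0.0673), and with the TPM values (adjusted p = 0.126 and 0.132).

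The members that fell most were low in both sets. TSPAN8 (ENSG00000127324, chromosome 12, 71125085 to 71441898, minus strand), a tetraspanin of gut epithelium linked to metastasis of gastrointestinal tumours, had 2.49, 2.07 and 1.37 CPM in shDNM1, from 18 to 32 counts, against 4.91, 5.23 and 5.09 CPM in shControl. The shDNM1 libraries lay between 26.96% and 48.98% of the shControl mean, without overlap, and the level was 0.390 of control (interval 0.273 to 0.556, adjusted p = 0.000318). It was the 1 member that fell beyond 1.5-fold in the test against that size (adjusted p = 0.0204). The interval the table gives for TSPAN8 overlaps LGR5, an intestinal stem cell gene on the plus strand, which had 2063 counts in all against 277 for TSPAN8 and itself fell to 0.524 of control (adjusted p = 5.31e-06). Reads of the overlapping part cannot be assigned to either without knowing the strand setting.

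TSPAN12, which strengthens Norrin signalling through FZD4 and LRP5, had 5.82, 5.10 and 6.46 CPM in shDNM1, against 10.8, 9.43 and 9.48 CPM in shControl. It was at 0.586 of control (interval 0.465 to 0.739, adjusted p = 0.00109) and kept its call without any single library (adjusted p from 0.0014 to 0.0106). The receptor gene FZD4 was at 0.760 of control (adjusted p = 0.0303) and the co-receptor gene LRP5 at 0.707 (adjusted p = 8.94e-06). The FZD4 call was lost without shDNM1 replicate 1 or 2 (adjusted p = 0.0648 and 0.0752) or shControl replicate 2 or 3 (adjusted p = 0.141 and 0.0845). It was also lost with DESeq2 (adjusted p = 0.0562) and with the TPM values (adjusted p = 0.0897 and 0.0929).

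TSPAN2, best known from oligodendrocytes, had 4, 6 and 15 counts in shDNM1, against 23, 36 and 16 counts in shControl, and the third library of each set almost met. Its level was 0.346 of control with a wide interval of 0.180 to 0.666 (adjusted p = 0.0139). The call was lost without shDNM1 replicate 2 (adjusted p = 0.0501) or shControl replicate 2 (adjusted p = 0.0995), and without shDNM1 replicate 3 the log2 fold change was -2.23 rather than -1.53. TSPAN3, an abundant and broadly expressed member, had 82.2, 78.9 and 86.3 CPM in shDNM1, against 93.8, 104 and 97.4 CPM in shControl, 0.839 of control (adjusted p = 0.0081). Without shControl replicate 2 the TSPAN3 call was lost (adjusted p = 0.0556).

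**Figure D3:**
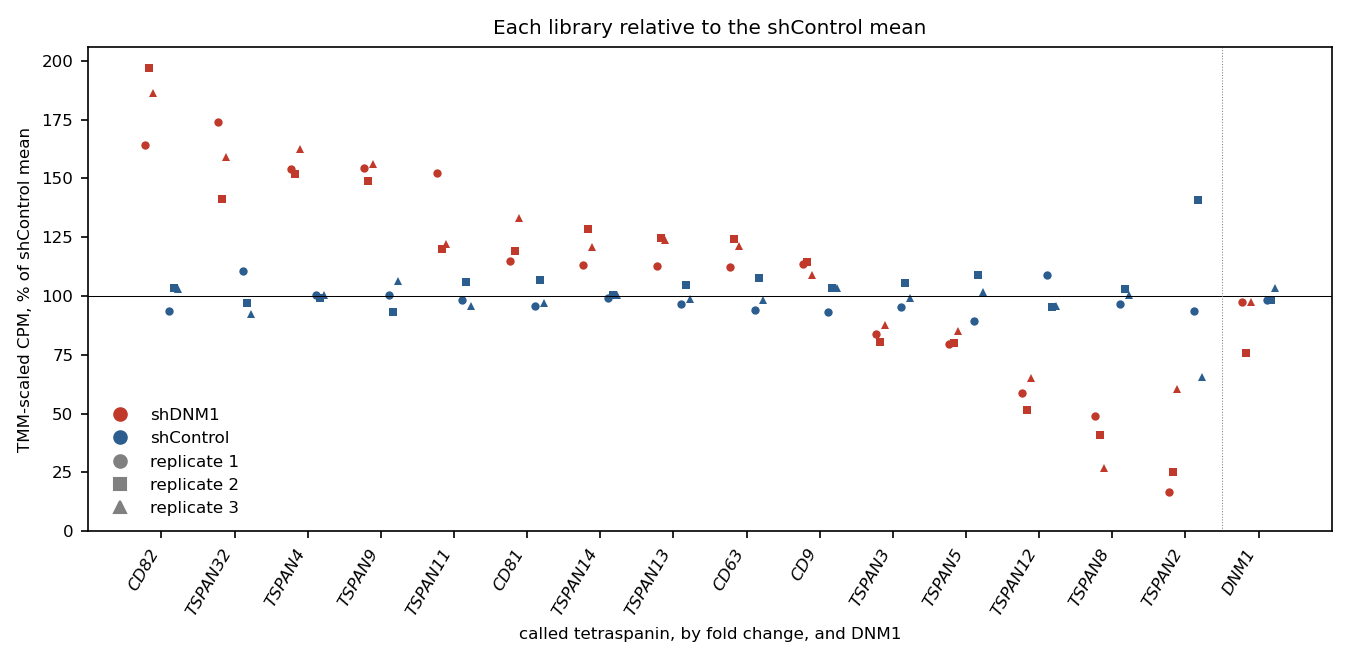
TMM-scaled CPM of every library as a percentage of the shControl mean (y axis) for the 15 called tetraspanins and, right of the dotted line, DNM1, with shDNM1 left of shControl and the replicate shown by the marker. For CD82 the shDNM1 libraries lie between 164% and 197%, for TSPAN8 between 26.96% and 48.98%, and for DNM1 at 97.5%, 75.8% and 97.3%.

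Sequence upstream of the start site is shown for the members that rose and fell most and have an entry in RefSeq's promoter table (build GRCh38.p14), to set beside each other the promoters of genes that moved in opposite directions. Of the 29 members 21 had an entry. From the 250 bases before the start site, the longest stretch that touches no GENCODE release 29 exon is printed 5′ to 3′ on the gene's strand. Capitals mark the GC box GGGCGG on either strand, a motif bound by SP1-family factors.
CD82 (chr11:44565413-44565590, plus strand): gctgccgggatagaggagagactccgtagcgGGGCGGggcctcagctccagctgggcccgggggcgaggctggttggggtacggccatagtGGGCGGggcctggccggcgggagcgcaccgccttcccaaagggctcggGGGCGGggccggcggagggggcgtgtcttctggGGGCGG
TSPAN4 (chr11:842602-842807, plus strand, the first of its 5 listed start sites): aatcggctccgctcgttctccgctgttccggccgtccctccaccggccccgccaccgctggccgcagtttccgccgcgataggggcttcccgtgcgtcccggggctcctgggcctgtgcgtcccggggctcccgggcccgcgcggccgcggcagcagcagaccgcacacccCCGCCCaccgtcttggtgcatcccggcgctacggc
TSPAN8 (chr12:71158100-71158249, minus strand, the first of its 2 listed start sites): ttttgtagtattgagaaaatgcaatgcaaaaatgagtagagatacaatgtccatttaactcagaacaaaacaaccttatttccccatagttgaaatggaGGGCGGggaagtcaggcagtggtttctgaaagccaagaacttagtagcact
TSPAN2 (chr1:115089504-115089753, minus strand): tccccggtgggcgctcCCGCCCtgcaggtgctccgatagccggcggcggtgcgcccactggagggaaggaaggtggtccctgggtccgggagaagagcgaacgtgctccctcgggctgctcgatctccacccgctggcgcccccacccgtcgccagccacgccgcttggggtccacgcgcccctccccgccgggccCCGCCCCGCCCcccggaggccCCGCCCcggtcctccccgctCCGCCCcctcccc

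The stretch of CD82 was 77.0% G and C with 4 GC boxes, that of TSPAN4 76.7% with 1, that of TSPAN2 79.2% with 5 and that of TSPAN8 38.7% with 1. A GC box was present in 42.6% of all 35116 upstream windows of 250 bases, whose median GC content was 58.0%. The printed stretches of CD82, TSPAN4 and TSPAN8 are shorter than these windows. The TSPAN4 start site furthest downstream had a stretch of 81.9% G and C with 4 GC boxes. CD82, which rose, and TSPAN2, which fell, both had a GC-rich stretch, and a link to direction was not tested. In none of the 4 printed stretches was a TATA box (TATAAA), an AP-1 site (TGANTCA) or an E-box (CACGTG) found on either strand, motifs present in 10.7%, 6.57% and 6.34% of all upstream windows. Only GC boxes were found in these stretches, so no motif overlapped one of another kind.

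Members of the family that mark leukocytes were at low levels or uncertain. TSPAN32 (chromosome 11, 2301997 to 2318204), a tetraspanin of blood cells, had 20.3, 16.5 and 18.6 CPM in shDNM1, against 12.95, 11.3 and 10.8 CPM in shControl, a 1.58-fold rise (adjusted p = 0.000578). It overlaps C11orf21 on the opposite strand, which had 2855 counts in all against 1177 for TSPAN32 and was 2.19-fold higher in shDNM1 (adjusted p = 2.38e-08), so that the reads of the 2 genes cannot be told apart without the strand setting. CD37, a B-cell tetraspanin, had 9.71, 9.88 and 11.02 CPM in shDNM1 and 10.04, 7.14 and 8.02 CPM in shControl and did not pass (adjusted p = 0.182). It overlaps TEAD2 on the opposite strand, which had 1714 counts in all against 726 for CD37. CD53, of most leukocytes, had 1, 2 and 4 counts in shDNM1 and 0 in every shControl library, where 0 allows up to 3 counts, so no fold is given. The leukocyte markers MS4A1 and CD3E were at 0 in every library and PTPRC had 0 to 2 counts. Of the list of 8, 2 were tested. CORO1A, which was 1.43-fold higher, carried most of its summed deposited TPM of 66.3 to 76.7 in shDNM1 and 50.5 to 57.4 in shControl. The part of such transcripts in the TSPAN32 difference was not tested.

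The remaining tested members did not pass. TSPAN6 had 95.8, 81.9 and 82.2 CPM in shDNM1 and 78.1, 77.4 and 81.5 CPM in shControl, close together but without overlap (log2 fold change 0.13, interval -0.02 to 0.29, adjusted p = 0.183). TSPAN1, a tetraspanin of secretory epithelia, had 16.3, 12.8 and 16.0 CPM in shDNM1 and 11.8, 13.99 and 13.8 CPM in shControl, which overlapped (adjusted p = 0.298). TSPAN31, which overlaps the cell cycle kinase gene CDK4 on the other strand, had 12.1, 13.2 and 9.73 CPM in shDNM1 and 12.6, 12.9 and 12.6 CPM in shControl, a log2 fold change of -0.12 (interval -0.41 to 0.17, adjusted p = 0.536). CDK4 had 11358 counts in all against 954 for TSPAN31, and reads of the overlapping part cannot be assigned without the strand setting. Of the members that failed the low-count filter, TSPAN7 had 0 to 6 counts in a library and CD53 0 to 4. TSPAN16, TSPAN18 and TSPAN19 had 0 counts in all 6 libraries, where 0 allows up to 3 counts, or at most 0.239 TMM-scaled CPM in any library, a limit that covers counting error only.

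The members are not evenly placed in the genome. Chromosome 12 holds 7 of the 29 and chromosome 11 holds 6. On chromosome 11, CD151 and TSPAN4 lie 2.98 kb apart, and TSPAN32 and CD81 58.0 kb apart. Over all genes tested, 15.6% were called higher and 16.2% lower. Within 250 kb of the start of TSPAN32, 6 of 7 other tested genes rose and 0 fell, with a median log2 fold change of 1.13. That median is the value of C11orf21, whose reads cannot be told apart from those of TSPAN32. Around CD81 6 of 8 rose with a median of 0.90. CD81 and TSPAN32 each lie in the window of the other, so these counts partly restate the members' own results. Around TSPAN4 the counts were 9 higher and 4 lower of 27, with a median of 0.17. Around TSPAN9 on chromosome 12, 2 of 9 rose and 2 fell. No other tested gene started within 250 kb of CD82. Near TSPAN8, 1 gene other than LGR5 did so, and it fell (log2 fold change -0.99). In these counts the start of a gene is its lower coordinate, whatever its strand. This window was chosen after values were seen, and overlapping windows share genes.

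Genes that act with tetraspanins were counted from lists of roles. Of 28 partner genes 26 were tested, and 8 rose, 11 fell and 7 did not pass, a median log2 fold change of -0.11. The 19 called were 73.1% of those tested, beside 31.9% of all genes tested, 15.6% higher and 16.2% lower. Among all genes of at least 5 TPM 36.5% were called, and among those of at least 50 TPM 43.6%. The laminin-receptor subunit gene ITGA6, whose integrin binds CD151, averaged 888 ± 19.98 CPM in shDNM1 and 610 ± 19.9 CPM in shControl (1.46-fold, adjusted p = 1.4e-06), and the tight junction gene CLDN1 was 1.43-fold higher (adjusted p = 2.52e-06). The hyaluronan receptor gene CD44 averaged 3.52 ± 0.31 CPM in shDNM1 and 10.2 ± 0.52 CPM in shControl (0.348 of control, adjusted p = 1.96e-06), and the kinase gene PRKCA was at 0.533 of control (adjusted p = 1.2e-08).

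In the list of extracellular vesicle formation, 20 of 21 genes were tested, and 5 rose, 3 fell and 12 did not pass, with a median log2 fold change of 0.05. The 8 called were 40.0% of those tested, near the 36.5% of all genes of at least 5 TPM and the 43.6% of those of at least 50 TPM, so the count is no result about vesicle genes. ANXA2, a membrane-binding annexin, was 1.29-fold higher, and the sorting genes HGS and TSG101, which load cargo into vesicles of the late endosome, were 1.19-fold and 1.20-fold higher. FLOT2, a raft scaffold, was at 0.767 of control. The adjusted p values of these 4 were 9.29e-05, 0.00439, 0.00503 and 0.000532. Without shControl replicate 3, 3 members of this list rose, and without shDNM1 replicate 2, 5 fell. With the TPM values 2 rose and 4 fell, and the HGS call was lost (adjusted p = 0.0508 and 0.0524). The family members that the naming rule leaves out, UPK1A, UPK1B and PRPH2, had at most 7 counts in a library, and ROM1 did not pass (adjusted p = 0.913).

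**Figure D4:**
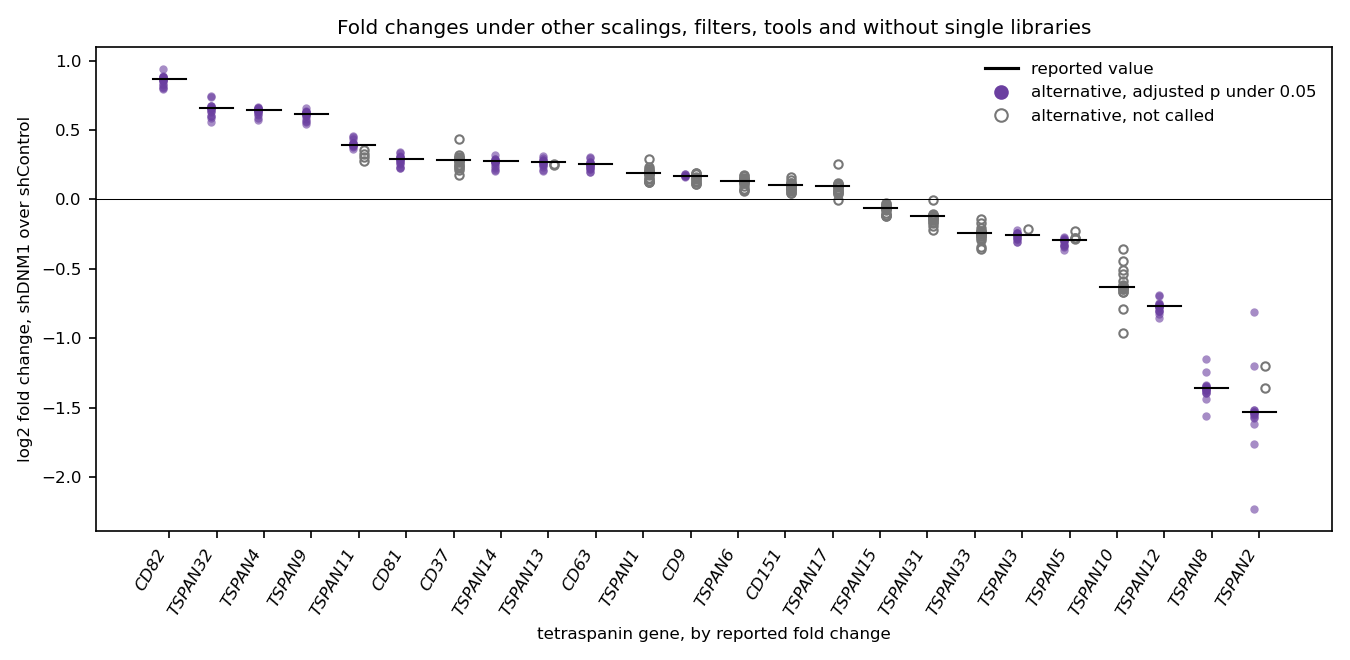
Log2 fold change (y axis, shDNM1 over shControl) of each tested tetraspanin, ordered by its reported value (black bar), under up to 17 alternatives: other scalings, filters and tools, the replicate block and leaving out each library. Filled points are called at an adjusted p of 0.05 and open points are not; CD82 keeps to a range of 0.79 to 0.94 with every point filled, whereas most points of CD9 are open.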

How the data were processed

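Gene expression was measured in 6 SW620 libraries made with an mRNA-seq kit from total RNA, per the labels' protocols; groups and replicate numbers come from the sample titles. Read counts per gene, in whole numbers, were deposited by the authors, and the build was GRCh38 per the submitters' processing notes. Aligner, counter, annotation and any use of strand: not given in the sources used here. The authors' TPM were recorded as a score, because repeated gene names make the deposited columns exceed the TPM total; over unique names each sums to 1000000. In both files 2328 lines sharing 453 names had identical values and were collapsed, which left 60835 names.

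Counts were analysed in R 4.3.3 with edgeR 4.0.16: filterByExpr, TMM scaling and the two-sided quasi-likelihood F test, adjusted by Benjamini-Hochberg over 16744 genes at a threshold of 0.05. CPM are TMM-scaled. TPM served for levels between genes. The alternatives used DESeq2 1.42.0, limma 3.58.1, other scalings and filters, a block and single libraries left out. On data simulated for this comparison (16747 genes tested), the test called 76% of genes changed 1.5-fold and 30% at 1.25-fold. Every simulated gene had the same relative spread between libraries beyond counting error. Only 50 genes were changed at each of these folds, far fewer than were called in the data. These rates therefore need not hold for the measured genes. Members and lists were chosen with earlier results of these data known. Every called member and the 4 most abundant members not called are named with values. So are up to 4 called genes of smallest p in each list of related genes or markers. ADAM10, FZD4 and LRP5 are named as partners of members, after their values were seen, as are members named beyond that. CDH1 is named as the remaining called epithelium marker.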

Additional observations from a re-analysis of the deposited data

How the results depend on the processing

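The count of tetraspanins called was 15 in the reported fit and between 11 and 15 under the alternatives other than a stricter threshold or minimum change. Of all genes tested, 31.9% were called in the reported fit and 15.2% to 36.3% under those alternatives. The lowest share came without the low-count filter, with 35100 genes tested. At an adjusted p of 0.01, 7 members rose, 3 fell and 3503 genes were called in all, 20.9% of those tested. Against a minimum change of 1.5-fold (glmTreat), 1 member rose and 1 fell, 2 in total, of 591 genes called (3.53% of those tested). Leaving out each library in turn gave 7 to 9 members higher, 2 to 5 lower and 11 to 14 in total. In those fits 23.1% to 34.0% of all genes tested were called. The count of members called lower was 2 without shControl replicate 2 and 3 without shDNM1 replicate 2. For DNM1 the log2 fold change ranged from -0.205 to -0.0373 without single libraries. TSPAN17, not called, ranged from -0.00125 (without shControl replicate 1, the opposite sign to its reported 0.09) to 0.255 (without shControl replicate 2). The cause of these shifts was not tested. The median log2 fold change of all genes stayed between -0.07 and 0.00 over the settings. Same-numbered libraries correlated at 0.10, 0.06 and -0.03 in their deviations from the group means. For shDNM1 replicates 1 and 2 the same-numbered control correlated best, and for replicate 3 another number did. With 3 libraries in a set, these correlations cannot settle whether same-numbered libraries were paired. The replicate block left the tetraspanin counts at 10 higher and 5 lower and called 6080 genes in all, 36.3% of those tested. Depth limits TSPAN2, TSPAN8 and TSPAN10, which had 4 to 71 counts in a library.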
